A study of Mus musculus with 14 samples.

Results

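H3K4me3 peaks and putative enhancers were examined at 44 imprinted genes of 20 clusters in immortalised mouse embryo fibroblasts (iMEF). The genes were taken from a list of mouse genes known to be expressed mainly or only from 1 parental allele, and all 44 were matched by symbol among 55413 genes of the annotation. The cells were iMEF-Ash2l fl/fl-Cre-ER cells of a single clone, NG3. Exon 4 of the endogenous Ash2l had been deleted, and a lentiviral human ASH2L fused to FKBP-F36V with 2 HA tags, which the compound dTAG-13 directs to degradation, replaced it. Chromatin immunoprecipitation and sequencing had been done for 6 groups of 2 H3K4me3 libraries. These were untreated cells and cells given dTAG for 30 min, 2 h, 4 h, 8 h or 16 h, all of the same clone and all carrying the deletion and the fusion protein. In addition there were 2 input libraries, 1 of untreated cells and 1 of cells after 16 h of dTAG.

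The values are positions. The authors deposited 1 list of 25431 H3K4me3 peaks found across the samples, with a chromosome, a start and an end each. They also deposited 1 list of 32965 putative enhancers. The authors defined these as regions with H3K4me1, H3K27ac and open chromatin in control cells, outside 1 kb of known transcription start sites (TSSs). The lists separate neither samples nor parental alleles. From these 2 lists, no level, no replicate error and no change over time could therefore be given for any gene. A missing peak says only that none was called. A gene was counted as having a peak when any base of a peak lay within 1 kb of one of its TSSs. The markers of the labelled cell type were in place. All 10 fibroblast markers had a peak, with Prrx1 (3018 bp) and Twist1 (2909 bp) the widest, whereas 2 of 14 markers of other cells had one, the epithelial genes Epcam (724 bp) and Cdh1 (602 bp).

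Genomic imprinting restricts the expression of a gene to the copy inherited from 1 parent. Imprinted genes lie in clusters, each governed by a control region whose DNA is methylated on a single parental chromosome since the germline, and many of these regions are promoters, often of long noncoding RNAs that silence neighbouring genes in cis. The zinc finger protein ZFP57 binds methylated control regions and helps to keep their methylation, CTCF binds some unmethylated ones, and H3K4me3 is typically found on the unmethylated copy, since the enzymes that methylate DNA de novo avoid this mark.

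Of the 20 control regions examined, 17 are promoters methylated on the maternal chromosome and 3 are regions upstream of a gene that are methylated on the paternal chromosome. The sequences below are shown because they hold the letters that mark these regions. For the maternally methylated promoters, the stretch of 200 bases outside annotated untranslated regions with the most copies of the ZFP57 core TGCCGC within 1 kb of the TSS was read from the reference (GRCm38.p6, the build mm10). Capitals mark the core on either strand, so that its reverse complement GCGGCA is also in capitals. The first 5 stretches come from promoters with a peak and the last from a promoter without one.

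Kcnq1ot1, chr7:143295549-143295748, minus strand: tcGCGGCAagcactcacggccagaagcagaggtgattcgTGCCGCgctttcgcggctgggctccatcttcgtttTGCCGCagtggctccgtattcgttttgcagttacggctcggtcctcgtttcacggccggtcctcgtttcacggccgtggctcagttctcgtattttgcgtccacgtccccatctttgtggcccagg
Airn, chr17:12741586-12741785, plus strand: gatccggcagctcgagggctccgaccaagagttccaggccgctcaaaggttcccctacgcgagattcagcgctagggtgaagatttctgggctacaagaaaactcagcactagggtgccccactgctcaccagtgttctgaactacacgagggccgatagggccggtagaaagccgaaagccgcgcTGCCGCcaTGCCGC
Snrpn, chr7:60004326-60004525, minus strand: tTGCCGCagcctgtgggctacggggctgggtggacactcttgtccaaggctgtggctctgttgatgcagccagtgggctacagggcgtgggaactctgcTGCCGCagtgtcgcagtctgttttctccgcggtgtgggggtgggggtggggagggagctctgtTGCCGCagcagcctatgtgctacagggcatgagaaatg
Plagl1, chr10:13091061-13091260, plus strand: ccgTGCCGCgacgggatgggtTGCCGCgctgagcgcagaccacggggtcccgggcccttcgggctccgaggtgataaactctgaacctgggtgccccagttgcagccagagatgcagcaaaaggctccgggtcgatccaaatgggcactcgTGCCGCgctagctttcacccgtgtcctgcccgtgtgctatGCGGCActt
Peg13, chr15:72809859-72810058, minus strand: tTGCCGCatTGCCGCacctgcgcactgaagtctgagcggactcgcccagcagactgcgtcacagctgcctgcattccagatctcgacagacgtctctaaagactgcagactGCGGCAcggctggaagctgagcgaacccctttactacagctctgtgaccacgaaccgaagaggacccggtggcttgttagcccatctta
Peg3, chr7:6729976-6730175, minus strand: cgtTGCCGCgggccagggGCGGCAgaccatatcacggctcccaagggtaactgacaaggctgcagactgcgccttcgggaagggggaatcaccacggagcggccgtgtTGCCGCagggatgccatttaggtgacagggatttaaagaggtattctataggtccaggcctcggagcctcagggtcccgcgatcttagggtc

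For the region upstream of H19, the 5 stretches that hold the letters GGNGGCAG, part of the CTCF motif, are shown in capitals with 12 bases on either side. They are numbered from the side of H19.

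H19 site 1, chr7:142580297-142580328, minus strand: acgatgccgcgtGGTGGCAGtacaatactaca
H19 site 2, chr7:142580752-142580783, minus strand: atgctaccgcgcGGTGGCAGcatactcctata
H19 site 3, chr7:142581778-142581809, minus strand: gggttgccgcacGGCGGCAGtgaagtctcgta
H19 site 4, chr7:142581897-142581928, minus strand: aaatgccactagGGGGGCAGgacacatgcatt
H19 site 5, chr7:142582022-142582053, minus strand: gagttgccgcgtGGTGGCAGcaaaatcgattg

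An H3K4me3 peak was found at 27 of the 44 imprinted genes (61.4%). The share was 29.1% of all genes, 59.1% of protein-coding genes and 19.9% of long noncoding RNA genes. Among the imprinted genes, 24 of 37 protein-coding genes (64.9%) and 3 of 7 noncoding RNA genes (42.9%) had a peak. The imprinted protein-coding genes were therefore close to the share of all protein-coding genes when CpG islands were left aside. Peaks went with CpG islands. A peak lay at 86.6% of all genes with an island within 1 kb of a TSS and at 5.53% of genes without one. Of the imprinted genes 35 had an island, and 25 of these had a peak, while 10 did not. Among protein-coding genes with an island, 22 of 32 imprinted genes had a peak, beside 11603 of 12945 of all. Among genes with an island, the share was thus lower at the imprinted ones. This difference was not tested. Of the 9 without an island, Snrpn and Slc38a4 had a peak, and the Slc38a4 peak reached an island farther inside the gene.

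The widest peak of the 27 genes had a median of 1299 bp (order-statistic 95% interval 1071 to 1944 bp), beside 1246 bp for all genes with a peak and 1255 bp for protein-coding genes. When peaks less than 1 kb apart were merged, the medians were 1955, 1639 and 1628 bp. Of the 27 genes, 12 had 2 or more peaks, as had 6252 of the 16117 genes with a peak. The range ran from 371 bp at Rasgrf1, a guanine nucleotide exchange factor, to 2855 bp at H13, a signal peptide peptidase. In all, 43 distinct peaks lay at the 27 genes, 35 of them on a CpG island. Several genes shared peaks. Peg10, a gene derived from a retrotransposon, and Sgce, which encodes a sarcoglycan and is transcribed from the same stretch in the opposite direction, shared 3 peaks of 386, 637 and 1412 bp. The retrogene Zrsr1 lies in an intron of Commd1, which acts in copper metabolism, and a peak of 2665 bp covered the Zrsr1 promoter and counted for both, while Commd1 had a further peak of 1698 bp at its own promoter.

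**Figure D1:**
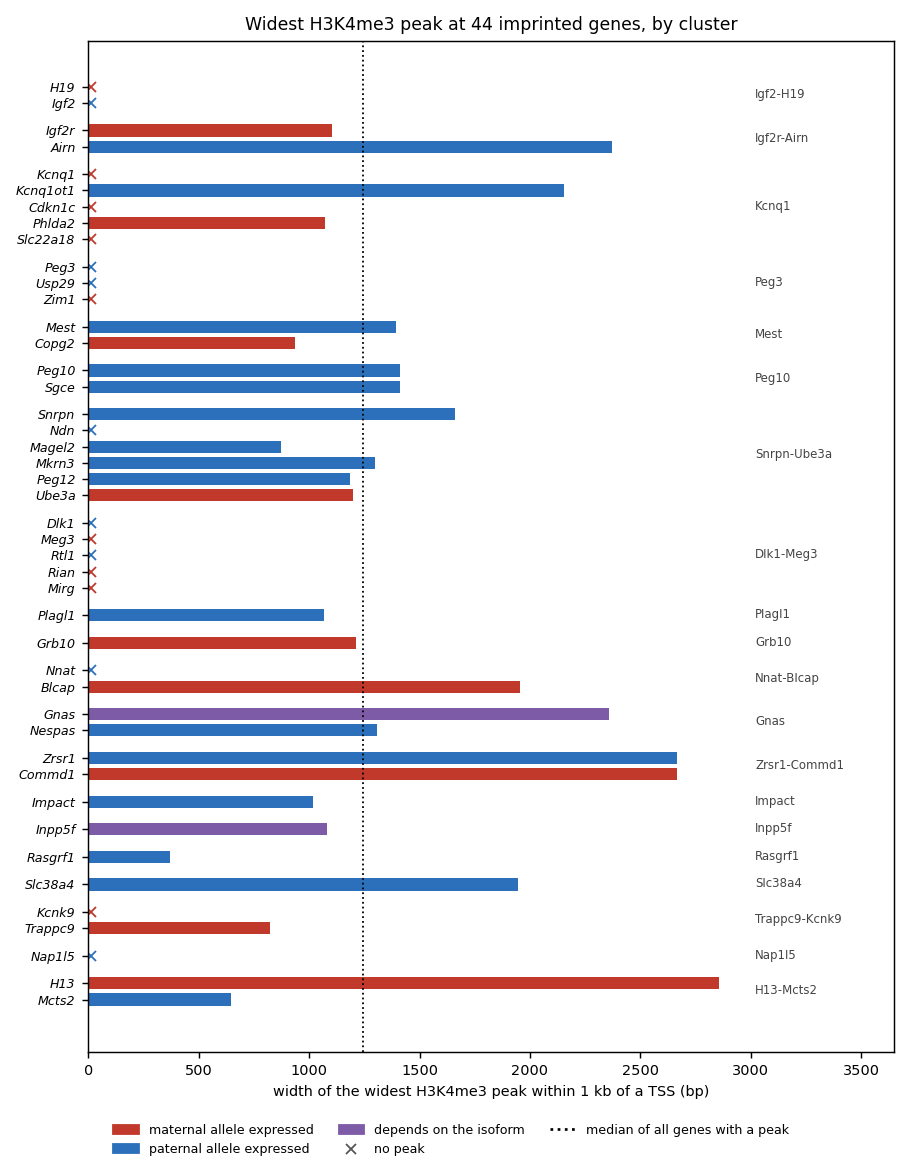
Width in bp of the widest H3K4me3 peak within 1 kb of a TSS at each of the 44 imprinted genes, grouped by cluster and coloured by the parental allele known to be expressed. Crosses stand for the 17 genes without a peak, and the dotted line is the median of all genes with a peak (1246 bp). No gene of the Igf2-H19, Peg3 and Dlk1-Meg3 clusters had a peak.

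The clusters differed. In 12 of 20 clusters every imprinted gene had a peak, and in 4 of 20 none had, namely Igf2-H19, Peg3, Dlk1-Meg3 and Nap1l5. The counts include clusters with a single listed gene, namely Plagl1, Grb10, Impact, Inpp5f, Rasgrf1 and Slc38a4 with a peak and Nap1l5 without. The Dlk1-Meg3 cluster on chromosome 12 spans 297 kb and holds 5 listed genes. These are Dlk1, a membrane protein related to Notch ligands, Rtl1, derived from a retrotransposon, and the noncoding RNA genes Meg3, Rian and Mirg. No peak lay in the span or within 100 kb of it, and the nearest peak to a TSS was 262126 bp away for Dlk1 and 350304 bp away for Meg3. The Peg3 cluster on chromosome 7 spans 296 kb and held 0 peaks at Peg3 and Zim1, which encode zinc finger proteins, and at Usp29, which encodes a ubiquitin protease. Its nearest peak was 55575 bp from Zim1 and 90118 bp from Peg3. Both clusters thus formed stretches without H3K4me3 peaks, as the maps of 6 clusters show.

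Of the 17 genes without a peak, 14 had none within 10 kb of a TSS. The other 3 were the genes just outside the window, with the nearest peak at 1711 bp (Ndn), 1908 bp (H19) and 4273 bp (Nnat). The peak near Ndn, which encodes a MAGE family protein, had 647 bp (chr7:62348280-62348926), lay wholly in exonic sequence and within the gene. With TSSs of the RefSeq annotation, the same peak lay within 1 kb of an Ndn TSS. The absence at Ndn thus depends on the annotated TSS. Inside the window, the farthest nearest peak was that of the retrogene Mcts2, 105 bp from the TSS, so no gene lay close to the limit of 1 kb.

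**Figure D2:**
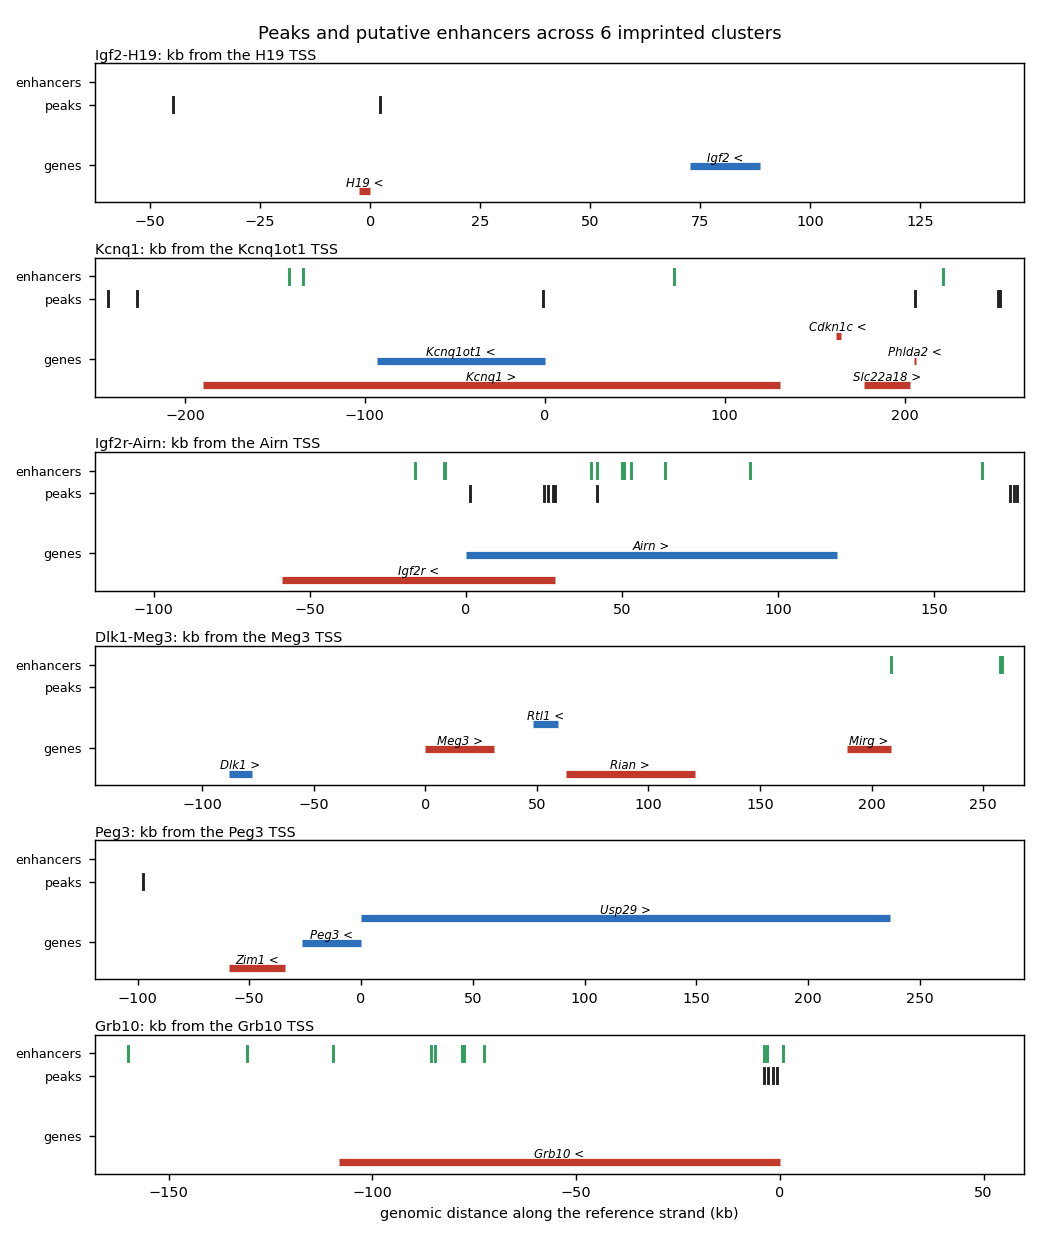
Peaks (black) and putative enhancers (green) across 6 imprinted clusters, with genes in red (maternal allele expressed), blue (paternal) and their direction of transcription by arrowheads, and with distance in kb from the named TSS along the reference strand. The Dlk1-Meg3 span holds 0 peaks and the Peg3 span holds 0 peaks and 0 enhancers, while 1 peak lies between H19 and Igf2.

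In the Igf2-H19 cluster, the only peak in the span of 91.3 kb lay upstream of H19. Igf2 is a growth factor expressed from the paternal allele, and H19 is a noncoding RNA expressed from the maternal allele. Neither promoter had a peak, and the nearest peak to Igf2 was 72295 bp away. The peak upstream of H19 had 685 bp (chr7:142580051-142580735), was intergenic, and reached from 2592 to 1908 bp before the H19 TSS. This is the control region that is methylated on the paternal chromosome and bound by CTCF on the maternal one. Of the 5 stretches shown above, H19 site 1 lay wholly in the peak (32 of 32 bases) and the other 4 lay beyond its far end, with 0 bases in it. The window of 2001 bp held 5 matches to GGNGGCAG on both strands, a count reached by 222 of 32093 promoter windows of that length (0.692%). A match is a description of the letters, and binding was not measured here.

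The other 2 paternally methylated regions had no peak. For Meg3, the window of 10 to 15 kb upstream was 335304 bp from the nearest peak. For Rasgrf1, the window of 30 to 40 kb upstream held 1 putative enhancer and 0 peaks, and was 29653 bp from the nearest peak. The Rasgrf1 promoter itself had a single peak of 371 bp, the smallest of the widest peaks per gene, which reached from 347 bp before to 23 bp after the TSS.

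Of the 17 maternally methylated control promoters, 13 had a peak. Most of the 17 windows held a CpG island, and 86.6% of all genes with an island within 1 kb of a TSS had a peak. That share counts every TSS of a gene, and the control promoters 1 TSS each, so 13 of 17 is not above it. The 13 with a peak included 4 promoters of noncoding RNAs. Kcnq1ot1, the RNA that silences the Kcnq1 cluster in cis, had a peak of 2152 bp (chr7:143294405-143296556), from 7 bp before to 2144 bp after its TSS and inside the gene Kcnq1. Airn, which overlaps and silences Igf2r, had a peak of 2371 bp (chr17:12741333-12743703) that began 22 bp after the TSS and ended 2392 bp after it, with 96.1% of its bases in introns. The peaks of Kcnq1ot1 and Airn lay on the transcribed side of the start site. Nespas, the antisense RNA of the Gnas cluster, had peaks of 1309 and 884 bp on either side of its TSS (2193 bp in all), and Peg13, a noncoding RNA within Trappc9, had peaks of 889 and 854 bp, the latter across its TSS.

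The control promoters of protein-coding genes with a peak varied in width. Zrsr1 had the widest at 2665 bp (chr11:22971972-22974636), from 33 bp before to 2631 bp after the TSS, with 98.8% of it exonic. Snrpn, which encodes a splicing factor and whose promoter is the control region of the Snrpn-Ube3a cluster, had a peak of 1661 bp (chr7:60003638-60005298) from 187 bp before to 1473 bp after the TSS. The TSS of Snurf, which shares that promoter, lay in the same peak. Mest, a member of the hydrolase family, had a peak of 1395 bp from 478 bp before to 916 bp after, and Peg10 one of 1412 bp that began 88 bp after the TSS. Plagl1, a zinc finger transcription factor, had peaks of 390 and 1066 bp on either side of its internal TSS. The shortest were those of Mcts2 (645 bp) and of the short Inpp5f isoform called variant 2 (666 bp), while the main promoter of Inpp5f, which encodes a phosphoinositide phosphatase, had a peak of 1081 bp.

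**Figure D3:**
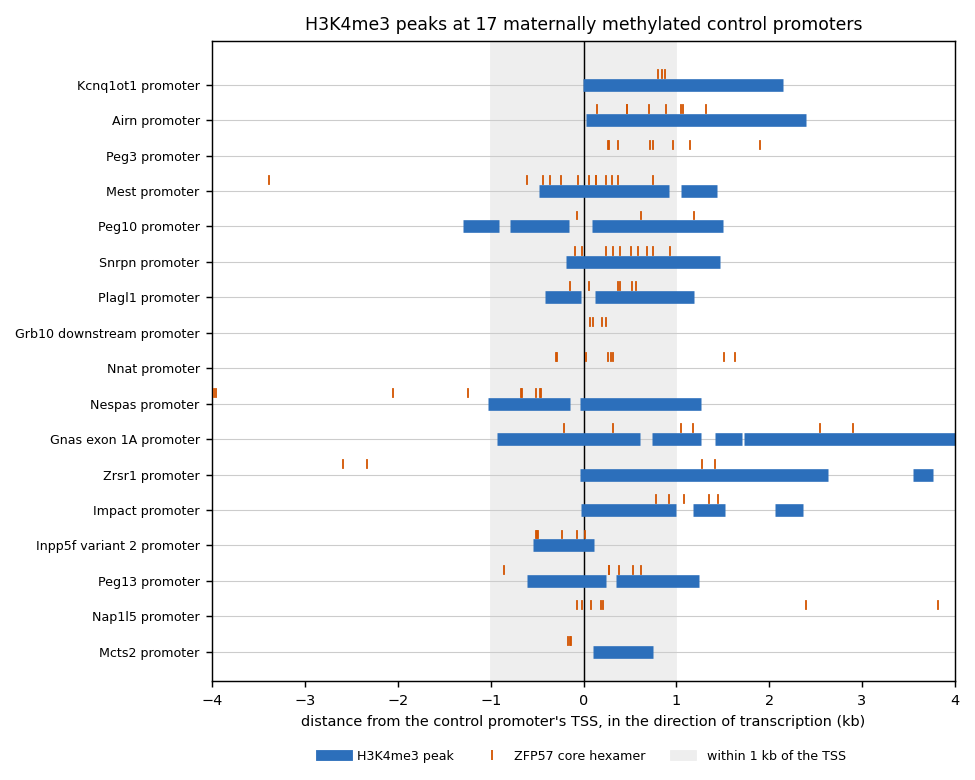
H3K4me3 peaks (blue bars) and ZFP57 core hexamers on either strand (orange ticks) at the 17 maternally methylated control promoters, plotted by distance in kb from the TSS in the direction of transcription. At Kcnq1ot1, Airn and Zrsr1 nearly the whole peak lies to the right of the TSS, at Peg10, Plagl1, Nespas and Peg13 a further peak lies on the left or across it, and the Peg3, Grb10 downstream, Nnat and Nap1l5 promoters have hexamers and no peak within 4 kb.

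The widest peak began a median of 42 bp before the TSS at the 27 imprinted genes, beside 282 bp at all genes with a peak and 210.5 bp at protein-coding genes. For each gene, the most upstream annotated TSS within 1 kb of the peak was used, and a later start counted as a start at that TSS. The median number of TSSs was 5 at the 44 imprinted genes, 1 at all genes and 3 at protein-coding genes, with or without a peak. How far TSS number sets the distance was not tested. The widest peak began at most 100 bp before the TSS at 63.0% of the imprinted genes, beside 39.4% of all genes and 43.9% of protein-coding genes. Among the 13 control promoters with a peak, 9 had a widest peak that began at most 100 bp upstream, and in 5 of these it began after the TSS. At Snrpn (187 bp), Mest (478 bp), the short Inpp5f isoform (549 bp) and exon 1A of Gnas (930 bp) it reached farther. The measure takes 1 peak per gene, and several genes also had a shorter, separate peak upstream of a TSS. Among them were Igf2r, Copg2, Ube3a, Plagl1, Peg10, Nespas, Inpp5f, Grb10, Gnas and Impact. Of the control promoters counted above, Peg10, Plagl1 and Nespas had such a peak upstream, and the shorter Peg13 peak began before its TSS. With peaks merged within 1 kb, the medians were 322 bp at the imprinted genes, 483 bp at all genes and 438 bp at protein-coding genes, and the shares that began at most 100 bp upstream were 37.0%, 22.5% and 24.1%. These values are descriptions without a test, since genes of a cluster share peaks.

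No peak was found at the control promoters of Peg3, Nnat, Nap1l5 and the downstream promoter of Grb10. Nnat encodes a proteolipid known from the brain and lies in an intron of Blcap, which had a peak of 1955 bp at its own promoter, so that the nearest peak to the Nnat window was 4204 bp away. Nap1l5 is a retrogene related to nucleosome assembly proteins, and its window was 73884 bp from a peak. For Grb10, which encodes an adaptor of the insulin receptor, the downstream promoter serves the paternal allele in neurons. That window was 7070 bp from a peak, whereas the main Grb10 promoter had peaks of 1214 bp (chr11:12036267-12037480) and 641 bp. An island lay in all 4 windows without a peak.

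The absent peaks did not go with an absence of the ZFP57 core. Within 1 kb of the TSS, TGCCGC occurred on both strands a median of 5 times at the 17 control promoters (interquartile range 3 to 6, range 0 to 12). The median was 5 at the 13 with a peak and 5.5 at the 4 without. The median was 0 at 32093 promoters of protein-coding and noncoding RNA genes and 1 at 13954 promoters with a CpG island. A count of 5 or more was found at 10 of 17 control promoters (58.8%), beside 0.957% of all these promoters and 2.04% of those with an island. The imprinted genes' 33 promoters away from a control region reached 0 to 4 hexamers, with a median of 0. Overlapping copies on the 2 strands were each counted.

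The counts differed between control promoters. Mest had 12 hexamers and Snrpn 10, and all 10 of the latter lay in its peak. Airn had 5 within 1 kb and 8 in its longer peak, and Zrsr1 had 0 within 1 kb and 2 in its peak. At Nespas the widest peak held 0, and all 5 hexamers within 1 kb of the TSS lay in its other peak, upstream. At Mcts2 the only peak held 0 of the 3 within 1 kb. The widest peaks of the 14 control regions with a peak, the H19 region included, held 2.88 hexamers per kb, beside 0.676 per kb over 17996 promoter peaks. At least 1 hexamer was found in 12 of the 14 (85.7%), beside 42.5% of promoter peaks. The sets are unlike in width, since only the widest peak of each control region entered (median 1352 bp) and every promoter peak did (median 957 bp).

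**Figure D4:**
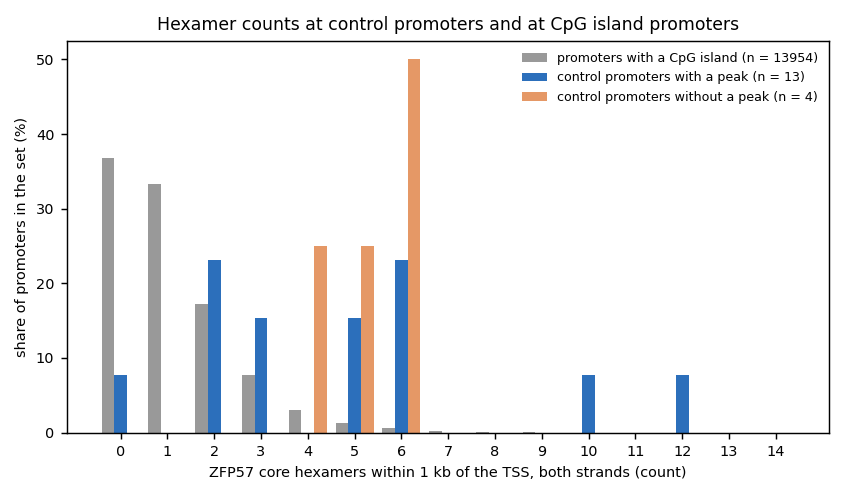
Number of ZFP57 core hexamers within 1 kb of the TSS on the x axis and share of promoters in percent on the y axis, for 13954 promoters with a CpG island (grey), 13 control promoters with a peak (blue) and 4 without (orange). The control promoters lie to the right of the island promoters, with medians of 5 and 5.5 against 1.

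By the parental allele known to be expressed, a peak was found at 9 of 18 maternally expressed genes (50.0%) and at 16 of 24 paternally expressed genes (66.7%). The median widths were 1200 bp (order-statistic 95% interval 936 to 2665 bp) and 1352 bp (1020 to 1944 bp). The peak of 2665 bp at the Zrsr1 promoter entered both, through Commd1 and Zrsr1. With protein-coding transcripts only, the widest peak at Commd1 was 1698 bp. Among genes with a CpG island within 1 kb of a TSS the shares were alike, 9 of 13 maternally and 14 of 20 paternally expressed genes. Gnas and Inpp5f, whose allele depends on the isoform, both had peaks. The maternal count rested on genes that are imprinted in some tissues or isoforms only. Of 8 such genes, 7 had a peak, namely the coatomer gene Copg2 (936 bp), Ube3a (1200 bp), Grb10, Blcap, Commd1, the trafficking gene Trappc9 (823 bp) and H13. Without them, 2 of 10 maternally expressed genes had one, beside 15 of 23 paternally expressed genes. These 2 were Igf2r, the receptor that clears IGF2, and Phlda2, which restrains placental growth. Of the 10, H19, Slc22a18, Meg3, Rian and Mirg have no CpG island within 1 kb of a TSS. Meg3, Rian and Mirg also lie in the same cluster, Dlk1-Meg3. Of the 23, Snrpn, Ndn, Rtl1 and Slc38a4 have no such island. Over all genes without one, 5.53% had a peak, so this contrast is not separate from island content. Both alleles of a gene are merged in the peak list, so a peak at Igf2r does not tell on which chromosome it lay.

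The Kcnq1 cluster on chromosome 7 held 5 listed genes. The potassium channel gene Kcnq1, the cyclin-dependent kinase inhibitor gene Cdkn1c and the transporter gene Slc22a18 had no peak, with the nearest at 35462, 40847 and 26796 bp. Phlda2 had a peak of 1071 bp (chr7:143501897-143502967) that began 183 bp after the TSS. Kcnq1 and Cdkn1c have a CpG island at a TSS. In the Igf2r-Airn cluster on chromosome 17, Igf2r had peaks of 1102 and 296 bp at its promoter, and further peaks of 1805 and 343 bp lay in its introns, where Airn is transcribed through in the opposite direction. The map shows these peaks apart from the one at the Airn promoter.

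In the Snrpn-Ube3a cluster, which spans 3240 kb of chromosome 7, 5 of 6 genes had a peak at a TSS. The peaks had 871 bp at Magel2, a MAGE family gene, 1299 bp at Mkrn3, which encodes a ubiquitin ligase, and 1185 bp at Peg12. Ube3a, a ubiquitin ligase gene imprinted in neurons, had peaks of 1200 and 549 bp. A further 10 peaks of the span lay away from the TSSs of these genes, among them 758 bp within Peg12, the 647 bp within Ndn and 357 and 326 bp within the noncoding host gene Snhg14.

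Gnas and Impact had the most peaks. On chromosome 2, Gnas, which encodes the alpha subunit of a stimulatory G protein from several promoters, had 4 peaks. That at exon 1A had 1537 bp (chr2:174326640-174328176), and the widest, at the promoter of the main isoform, had 2360 bp (chr2:174329299-174331658). Impact, a regulator of translation, had 5 peaks of 228 to 1020 bp, the widest at its internal control promoter. Among the remaining genes, the amino acid transporter gene Slc38a4 had a peak of 1944 bp (chr15:97054144-97056087) from 131 bp before to 1812 bp after the TSS. Kcnk9, a potassium channel gene of the Trappc9-Kcnk9 cluster, had none within 14920 bp.

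Putative enhancers within 100 kb of a TSS were found at 28 of the 44 imprinted genes. Such an enhancer lay near 66.0% of all genes and 73.8% of protein-coding genes. The median number was 1.5 (interquartile range 0 to 3), beside 2 (0 to 5) for all genes and for protein-coding genes. The 92 distinct enhancers were unevenly spread. Grb10 had the most with 13, of which 7 lay in the gene, and 2 of these overlapped peaks of 736 and 952 bp just downstream of its promoter. H13 and Mcts2, which lies within H13, both had 12, Airn had 11, Igf2r 10 and Mest 8. Kcnq1, Impact and Slc38a4 had 7 each. By the TSSs used here, some of the enhancers lay on or near a start site. The nearest was 0 bp from a TSS at Impact and at H13, 533 bp at Grb10 and 684 bp at Sgce. That at Impact overlapped the peak of 949 bp at the same TSS.

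**Figure D5:**
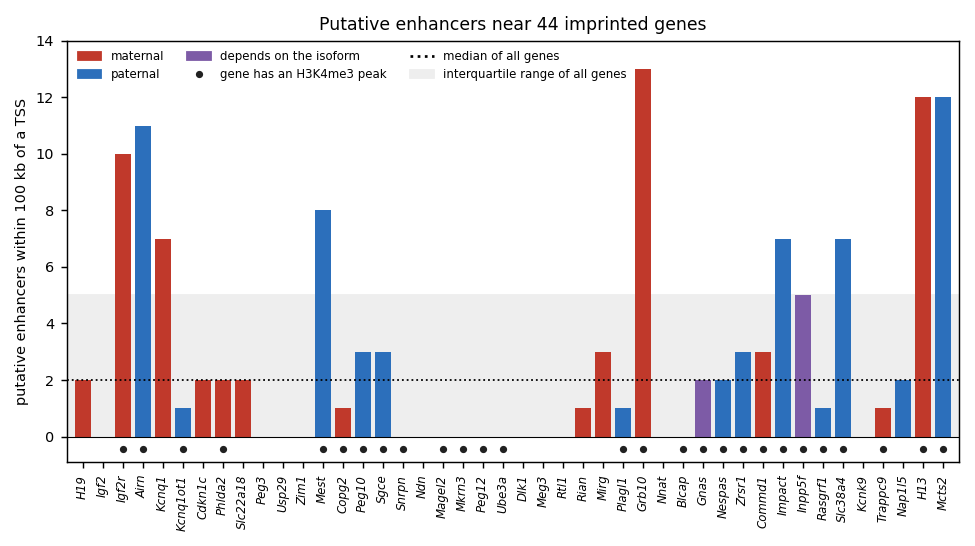
Number of putative enhancers within 100 kb of a TSS at each of the 44 imprinted genes, coloured by the parental allele known to be expressed, with the median (2) and the interquartile range (0 to 5) of all genes. Dots mark genes with an H3K4me3 peak. Grb10 has 13, and no gene of the Peg3 and Snrpn-Ube3a clusters has any.

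At the other end, 16 genes had no enhancer within 100 kb. They included all 6 genes of the Snrpn-Ube3a cluster, whose nearest enhancers were 142359 bp from Ndn and 490979 bp from Snrpn, and all 3 of the Peg3 cluster, with 289580 to 331486 bp. The span of the Snrpn-Ube3a cluster did hold 15 enhancers, all more than 100 kb from these TSSs, whereas that of Peg3 held 0. Presence of a peak and of an enhancer within 100 kb did not go together in the Snrpn-Ube3a cluster, where 5 genes had the former and none the latter. Of the genes with a peak, 21 of 27 had an enhancer, and of those without, 7 of 17. Over all genes, 13629 of 16097 with a CpG island had an enhancer, and 22950 of 39316 without an island. The split by peak was not made over all genes, so these counts show no trait of imprinted genes. Igf2 had no enhancer within 167842 bp, and the nearest to H19 was 91350 bp away, just inside the limit, as was that of Rian (91960 bp). Blcap (101979 bp), Nnat (102050 bp) and Kcnk9 (105735 bp) were just outside it. In the Dlk1-Meg3 cluster, the only enhancer in the span lay at the end of Mirg, 1284 bp from one of its TSSs.

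Among 28 other imprinted genes, 15 had a peak (53.6%), and 18 had a CpG island within 1 kb of a TSS, 13 of these with a peak. The widest were at Sfmbt2 (3342 bp), a Polycomb-related gene, Ago2 (2298 bp), an Argonaute protein of RNA silencing, and Osbpl5 (2227 bp). Dio3, which lies beyond Mirg and encodes a deiodinase, Ins2, which encodes insulin, and Zdbf2 had none. Of 15 genes that set or keep imprints, 12 had a peak, and these were the 12 with such an island. They included Zfp57 (1202 bp), its partner Trim28 (2858 bp), Zfp445 (855 bp), the maintenance factors Dnmt1 (1233 bp) and Uhrf1 (1978 bp), and Ctcf (2474 bp). The germline genes Dnmt3l, Ctcfl and Dppa3 had neither an island nor a peak. Over all genes, a peak lay at 86.6% of those with an island and at 5.53% of those without. The counts of both lists are therefore no trait of the lists beyond their islands.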

How the data were processed

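H3K4me3 ChIP-seq of 12 libraries (6 groups of 2) and 2 inputs was used through 2 deposited lists of positions. Per the authors' methods, reads were trimmed (Trim Galore), aligned to mm10 with BWA, filtered with SAMtools and merged with Picard, and peaks were called with MACS2. The versions are not given in the sources used here. The 2 lists used here hold positions only, in other units than a level, without counts or scores, and with 0 columns of values per sample. The paper names a further list, of H3K4me3 sites that changed at each time point against untreated cells, which was not used here. Depth is unknown, and the count test of H3K4me3 over time in the design was not possible from the 2 lists.

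Peak starts were taken to count from 0 and enhancer starts from 1, and all positions printed count from 1. The 25357 peaks on chromosomes 1 to 19, X and Y were used, and 74 on scaffolds were not. TSSs were the 5' ends of all GENCODE M21 transcripts, whereas the authors name a later release. CpG islands (17030) were called from the repeat-masked reference by a score of 17 per CpG and -1 per other base, with over 200 bp, a GC content over 50% and an observed to expected ratio over 0.6. They differ from published tracks. For hexamers, 1 promoter per gene (its most upstream TSS) was the background. Control regions were placed at annotated TSSs, or at stated distances upstream of them (2 to 4 kb for H19), from general knowledge, as were expressed alleles. Their exact limits were not measured here. Intervals of medians are binomial order-statistic intervals over genes. Interval functions gave 0 wrong answers in 700 cases with known results. No test was run. All 44 genes are described, with neighbours that share a peak and examples from 2 further lists. The members and lists were chosen with earlier results of these data known. Python 3.11.15, NumPy 2.4.6 and pandas 2.3.3 were used. Sequences of the control promoters not shown are not reported here.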

Additional observations from a re-analysis of the deposited data

How the results depend on the processing

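The number of imprinted genes with a peak lay between 23 and 29 under 8 alternatives, beside 27. Not every alternative covered all 44 genes. With protein-coding transcripts only, 24 of 37 genes had a peak (64.9%), and no gene lost its peak. With a window of 2 kb, H19 and Ndn were added. With the centre of the peak in the window, Airn, H13 and Kcnq1ot1, whose long peaks lie downstream, were lost, and with peaks of at least 500 bp Rasgrf1 was. The 23 come from RefSeq TSSs, an alternative chosen after seeing the data, which cover 34 of the 44 genes. Their share was 67.6%, beside 61.4% in the main count, and Ndn was gained. Control regions with a peak stayed 14 under all 3 alternatives. Of 38 alternative summary values, 33 stayed within 1.5 times the count or within the interval of the median, and 5 did not. With peaks merged within 1 kb, the median width at imprinted genes rose from 1299 to 1955 bp and, in an alternative added later, the median upstream extent from 42 to 322 bp, because neighbouring peaks were joined. The median number of enhancers, 1.5 within 100 kb, was 0 within 50 kb and 3 within 200 kb, with 19 and 36 genes having at least 1. Maternally expressed genes with a peak fell from 9 to 2 without tissue- or isoform-dependent genes, and they held 14 distinct peaks. Counting peaks anywhere in the gene, also chosen after seeing the data, gave 10 maternally and 17 paternally expressed genes with a peak. The time course, its replicate block, its other size factors and leaving out replicates were not run, since neither list used here gives values per sample. No paired analysis was possible because both files give positions for the series as a whole, with no value for a single library. Unknown depth limits what an absent peak shows.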
